A study of Mus musculus with 6 samples.

Results

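The genes described here are 10 genes of the secretory program and the differentiation of goblet cells, taken by name from a table of 24797 mouse genes, namely Atoh1, Spdef and Creb3l1, Agr2 and Ern2, Tff3, Fcgbp, Zg16 and Retnlb, and Sytl2. All 10 were found, each in 1 row, and all 10 were among the 18756 genes that passed the filter on low counts. They were measured by sequencing of polyadenylated RNA in 6 colonic tumor samples, 3 from GRdim mice, whose glucocorticoid receptor is deficient in dimerization, and 3 from GRwt mice with the wildtype receptor. All mice, of either genotype, had received AOM/DSS, in which the carcinogen azoxymethane is combined with the colitis-inducing agent dextran sulfate sodium. The receptor binds corticosterone and then regulates genes, and the design asks how tumors differ when its dimerization is impaired. The labels give neither strain, age nor sex, do not say whether each sample is 1 animal, and give no sample of untreated colon. The library names of GRdim replicates 1 and 3 share a number, and whether these libraries come from the same animal is not given. Each n = 3 below counts libraries, and the GRdim group may hold fewer than 3 animals. The p-values therefore measure the spread between these samples, which may be technical in part.

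Goblet cells are the mucus-producing cells of the intestinal lining. Progenitors enter the secretory lineage when the transcription factor Atoh1, which Notch signalling holds down, becomes active, and Spdef then drives the maturation of goblet cells. Their product, a gel built on the mucin Muc2, is folded in an enlarged endoplasmic reticulum, stored in granules and released onto the surface together with smaller proteins that bind bacteria or help to repair the epithelium. In bulk tissue, fewer goblet cells and less RNA per goblet cell cannot be told apart.

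Each library held 21132981 to 36222351 counts. The names of the libraries GRdim replicate 1 and GRwt replicate 3 include a T whose meaning is not given; Rn18s-rs5, a ribosomal sequence, held 2.05% and 2.51% of their counts and 0.0466% to 0.0725% elsewhere. Levels are given in CPM, counts per 1000000 of the library total, scaled by TMM to correct for composition. GRdim replicate 2 alone held more than 1 CPM of the Y-linked Ddx3y, at 59.5 CPM. That library alone held under 1 CPM of Xist, which stood at 517 to 1278 CPM elsewhere. By these genes GRdim replicate 2 reads as male and the other libraries as female, so sex was not balanced between the genotypes. The transcript of Nr3c1, the receptor gene, stood at 59.6 ± 18.1 CPM in GRdim and 55.3 ± 10.5 CPM in GRwt tumors (SD, n = 3 each), which does not check the labels, since the label gives an altered receptor and not a loss of it.

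GRdim replicate 3 stood apart in cell type markers, and the values that follow are to be read beside that. It had the highest level of all 10 smooth muscle markers, whose summed level was 7329 CPM there. That sum was 2889 CPM in GRdim replicate 1, 1416 CPM in GRdim replicate 2 and 1426 to 1627 CPM in the GRwt libraries. The adipocyte markers, described further on, summed to 351 and 363 CPM in GRdim replicates 1 and 3 and to 119 to 229 CPM elsewhere. GRdim replicate 3 also had the highest level of 8 of the 9 tested markers of squamous epithelium, the stratified lining found in skin and anal canal. The 14 listed squamous genes summed to 943 CPM there, against 105 to 222 CPM elsewhere. Krt1 and Krt5, defining keratins of such epithelium, (named after their values were seen) stood at 91.4 and 115 CPM in GRdim replicate 3 and at no more than 0.268 and 4.90 CPM in the other 5 libraries. Markers shared by all colonic epithelial cells, among them Epcam, Cdh1 and Krt8, were not low in it: the 12 genes of that reference list summed to 16624 CPM in GRdim replicate 3, to 13572 and 15682 CPM in GRdim replicates 1 and 2, and to 13633 to 20952 CPM in the GRwt libraries. How far squamous epithelium adds to that sum in GRdim replicate 3 was not tested. Nor was it tested how far the mixture of tissues in GRdim replicates 1 and 3 enters the goblet cell values.

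All 10 goblet cell genes had their lowest level in GRdim replicate 3, whereas 19.0% of all tested genes did. Relative to the mean of the 3 GRwt libraries, that library held between 18.3% (Retnlb) and 46.5% (Tff3) of each gene, with a median of 29.1% over the 10. The same median was 103% in GRdim replicate 1 and 94.7% in GRdim replicate 2, inside the GRwt range of 81.6% to 113%. The 10 genes together took 0.856%, 0.836% and 0.321% of all counts in GRdim replicates 1, 2 and 3, against 0.755%, 1.11% and 0.653% in GRwt replicates 1, 2 and 3. The 2 other GRdim libraries thus lay within the GRwt range in this share, and the third below it.

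**Figure D1:**
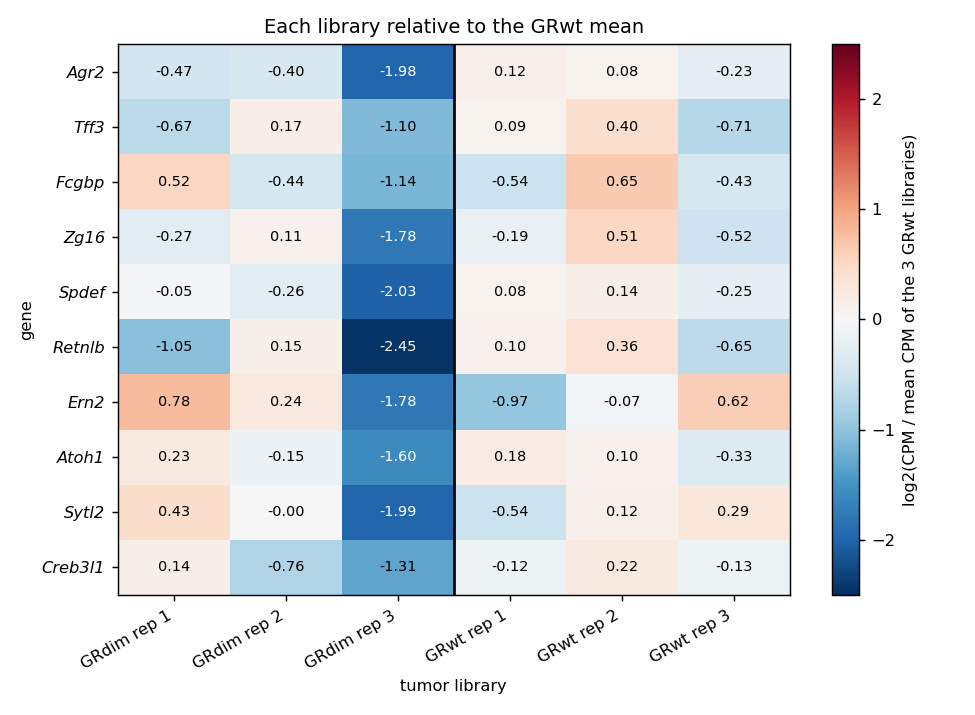
Level of each of the 10 goblet cell genes (rows) in each tumor library (columns, GRdim left of the black line, GRwt right), as log2 of CPM over the mean CPM of the 3 GRwt libraries; red is higher and blue lower. The column of GRdim replicate 3 is the lowest in every row, from -1.10 for Tff3 to -2.45 for Retnlb, while the other 2 GRdim columns hold values on both sides of 0.

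No goblet cell gene passed the test between genotypes. With the edgeR quasi-likelihood test and Benjamini-Hochberg adjustment over all 18756 genes, 0 of the 10 genes had an adjusted p under 0.05, and 0 genes in the whole table did, a background of 0%. The adjusted p was 0.9999 for each of the 10 genes, and likewise for every other gene named below with a fold change from all 6 libraries. At an unadjusted p under 0.05 there were 541 genes in the table, 336 higher and 205 lower in GRdim, so that 1.09% of those tested were lower at that level, and 0 of the 10 goblet cell genes were among them. DESeq2, run as an alternative, called 33 genes in the table and 0 of the 10. Of the 10 genes, 9 had a lower and 1 a higher estimate in GRdim tumors, with a median log2 fold change (GRdim minus GRwt) of -0.44, beside a median of 0.00 over all tested genes, 49.4% of which were lower. Without GRdim replicate 3 the count was 6 lower and 4 higher, with a median of -0.11.

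**Figure D2:**
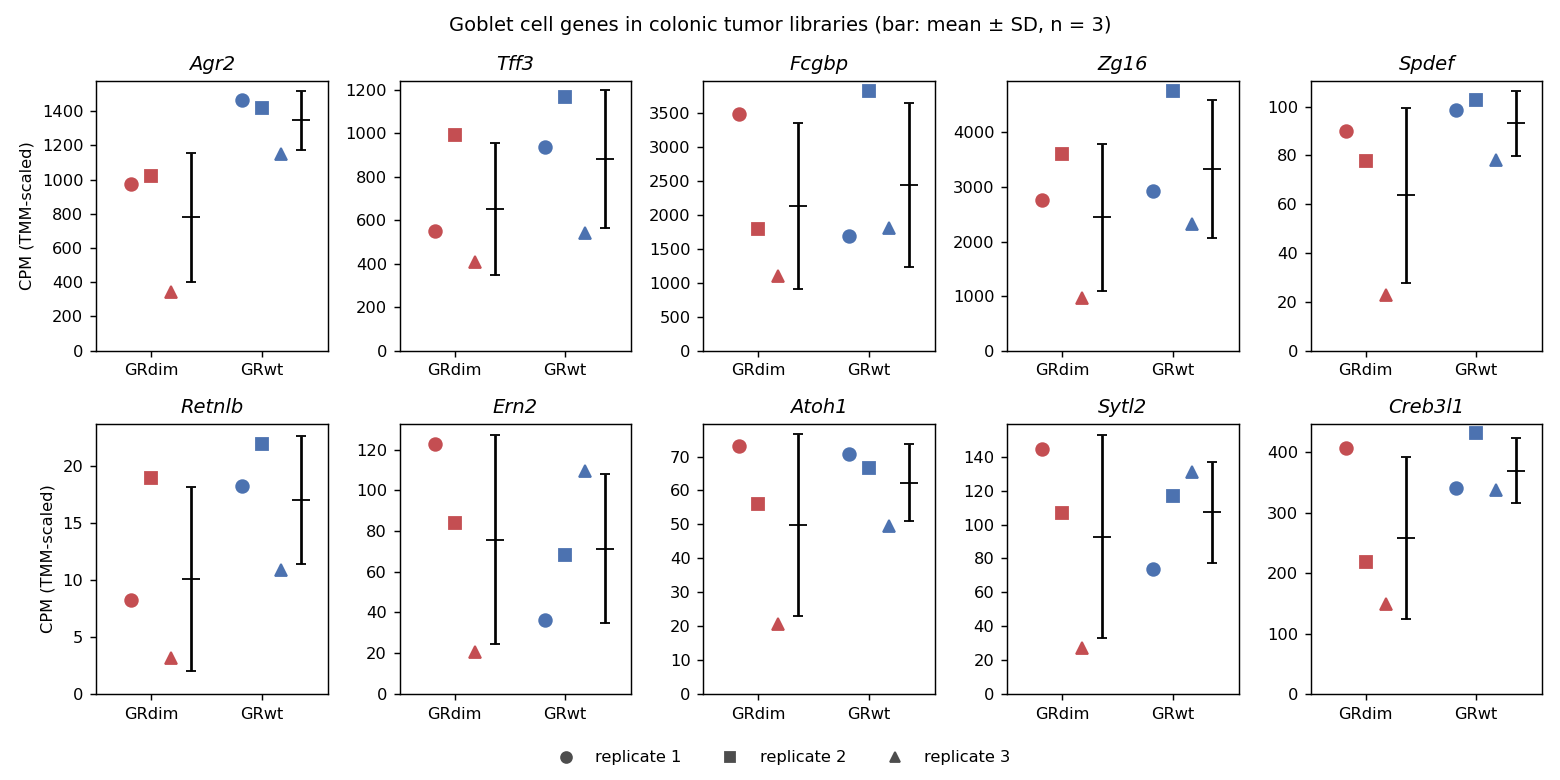
CPM of each goblet cell gene in the 3 GRdim (red, left) and 3 GRwt (blue, right) libraries, with marker shape for the replicate and black bars for the mean ± SD of each group (n = 3). Agr2 is the only panel in which all GRdim points lie below all GRwt points, from 342 to 1022 CPM against 1149 to 1467 CPM, and the GRdim triangle, replicate 3, is the lowest point in each panel.

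Among the transcription factors, Atoh1, which commits progenitors to the secretory lineage (ENSMUSG00000073043, chromosome 6, 64706109 to 64708229, plus strand, GRCm39, as are all gene positions of the table), stood at 73.2, 56.0 and 20.6 CPM in GRdim replicates 1, 2 and 3, against 70.8, 66.7 and 49.4 CPM in GRwt replicates 1, 2 and 3. GRdim replicate 1 was the highest of the 6 libraries and GRdim replicate 3 the lowest, so that the groups overlapped. The log2 fold change was -0.32 with a standard error of 0.40, and 0.046 without GRdim replicate 3. Spdef, the factor of goblet cell maturation (ENSMUSG00000024215, chromosome 17, 27933326 to 27947929, minus strand), stood at 90.1, 77.8 and 22.8 CPM in GRdim libraries, against 98.4, 103 and 78.1 CPM in GRwt libraries. The GRwt libraries lay within 1.32 times of each other, GRdim replicates 1 and 2 lay close to them, and GRdim replicate 3 was 3.40 times below the next lowest library, the widest such gap of the 10 genes. Its log2 fold change was -0.55 with a standard error of 0.43, -0.89 without GRdim replicate 1 and -0.16 without GRdim replicate 3. Creb3l1, a factor anchored in the endoplasmic reticulum membrane that is released by cleavage (ENSMUSG00000027230, chromosome 2, 91812673 to 91854847, minus strand), stood at 408, 219 and 149 CPM in GRdim libraries, against 341, 431 and 338 CPM in GRwt libraries. Here GRdim replicate 2 was low as well, and GRdim replicate 1 lay inside the GRwt range. The log2 fold change was -0.52 with a standard error of 0.35. It was -0.25 without GRdim replicate 3 and -1.01 without GRdim replicate 1 (edgeR adjusted p = 0.596).

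For 4 of the 10 genes, Agr2, Atoh1, Fcgbp and Spdef, RefSeq promoter windows of 250 bases before to 50 bases after the start were at hand (build GRCm38.p6, which is not the build of the count table). Those of Spdef, Atoh1 and Agr2 are shown because these 3 genes had the most alike patterns over the 6 libraries, as described further on. They lie at chr17:27728902-27729201 (minus strand), chr6:64728875-64729174 (plus strand) and chr12:35992675-35992974 (plus strand). Capitals mark the matches of 7 motifs searched on both strands.

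Spdef: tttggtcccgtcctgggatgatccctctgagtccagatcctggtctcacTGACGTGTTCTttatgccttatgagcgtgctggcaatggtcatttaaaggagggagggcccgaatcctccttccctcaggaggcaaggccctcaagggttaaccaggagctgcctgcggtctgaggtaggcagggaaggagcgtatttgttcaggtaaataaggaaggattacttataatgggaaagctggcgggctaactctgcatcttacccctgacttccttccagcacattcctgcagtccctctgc

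Atoh1: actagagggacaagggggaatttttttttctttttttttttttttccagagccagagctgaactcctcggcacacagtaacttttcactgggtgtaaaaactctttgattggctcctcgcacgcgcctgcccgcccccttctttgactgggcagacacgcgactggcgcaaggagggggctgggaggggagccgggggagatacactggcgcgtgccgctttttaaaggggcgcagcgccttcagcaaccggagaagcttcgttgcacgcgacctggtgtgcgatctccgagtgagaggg

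Agr2: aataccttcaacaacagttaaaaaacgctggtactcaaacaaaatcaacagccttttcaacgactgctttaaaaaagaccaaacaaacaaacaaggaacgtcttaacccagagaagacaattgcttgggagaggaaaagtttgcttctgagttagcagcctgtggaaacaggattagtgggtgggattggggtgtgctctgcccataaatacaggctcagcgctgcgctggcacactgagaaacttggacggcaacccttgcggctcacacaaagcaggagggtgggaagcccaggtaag

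The full palindrome of the glucocorticoid receptor, searched as GNACA and TGTNC separated by 3 free bases, was in 0 of the 4 windows and in 0.475% of the 32851 windows of the table. The shorter receptor motif AGAACA was in the Spdef window alone, on the opposite strand and beginning 196 bases before the start, and in 19.0% of all windows. It shares 1 base with the only match of TGACGT, the core of sites for factors of the CREB family, which stood 201 bases before the Spdef start and was in 7.51% of all windows. The E-box CAGCTG, of the kind bound by factors such as Atoh1, was in the Fcgbp window alone, 208 bases before the start, and in 16.3% of all windows. A second E-box, CAGATG, was in 0 of the 4 windows and in 17.2% of all windows. The same count of 0 held for CCGGAT, a core for Ets factors such as Spdef, which was in 6.04% of all windows. It held as well for the TATA box, TATAAA, which was in 13.6% of all windows. Each match is a description of letters in a window and no measure of binding.

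Agr2 and Ern2 act in the endoplasmic reticulum, and their patterns were unlike. Agr2, a disulfide isomerase needed to make Muc2 (ENSMUSG00000020581, chromosome 12, 36042906 to 36054086, plus strand), stood at 972, 1022 and 342 CPM in GRdim replicates 1, 2 and 3, against 1467, 1421 and 1149 CPM in GRwt replicates 1, 2 and 3. It was the only gene of the 10 with every GRdim library below every GRwt library in CPM, an order that 3.57% of all tested genes had. The log2 fold change was -0.79 with a standard error of 0.39 and an unadjusted p of 0.0757, and -0.44 without GRdim replicate 3. Ern2, the form of the stress sensor Ire1 found in mucosal epithelium (ENSMUSG00000030866, chromosome 7, 121769116 to 121785430, minus strand), stood at 123, 83.9 and 20.8 CPM in GRdim libraries, against 36.3, 68.0 and 109 CPM in GRwt libraries. The highest library of each genotype was the one with a T in its name, and the GRwt libraries themselves spanned 3.01 times. It was the only gene of the 10 with a positive estimate, a log2 fold change of 0.09 with a standard error of 0.59. That sign turned to -0.45 without GRdim replicate 1 and to -0.23 without GRwt replicate 1, and without GRdim replicate 3 the estimate was 0.53.

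Of the secreted proteins, Zg16, a lectin that binds the cell walls of Gram-positive bacteria (ENSMUSG00000049350, chromosome 7, 126649328 to 126686500, minus strand), stood at 2768, 3599.6 and 971 CPM in GRdim libraries, against 2928, 4753 and 2319 CPM in GRwt libraries. Its log2 fold change was -0.45 with a standard error of 0.48, -0.84 without GRdim replicate 2, -0.071 without GRdim replicate 3 and -0.10 without GRwt replicate 2. Fcgbp, a large mucus protein that is bound to Muc2 (ENSMUSG00000047730, chromosome 7, 27770661 to 27820287, plus strand), stood at 3492, 1797 and 1107 CPM in GRdim libraries, against 1683, 3828 and 1809 CPM in GRwt libraries. Each genotype had 1 library that was far above the other 2, and the groups overlapped widely. The estimate of -0.19 with a standard error of 0.47 changed sign without GRdim replicate 3 (0.11) and without GRwt replicate 2 (0.28). Fcgbp is built of repeated, similar domains, and how reads fitting several places were counted is not given, so its level is less certain.

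Tff3, the trefoil peptide that helps wounded epithelium to close (ENSMUSG00000024029, chromosome 17, 31344280 to 31348620, minus strand), stood at 552, 993 and 409 CPM in GRdim libraries, against 937, 1165 and 539 CPM in GRwt libraries. GRwt replicate 3 lay between GRdim replicates 1 and 3, and GRdim replicate 3 was only 1.32 times below the next library, the narrowest such gap of the 10. The log2 fold change was -0.43 with a standard error of 0.39; it was -0.88 without GRdim replicate 2, -0.19 without GRdim replicate 3 and -0.18 without GRwt replicate 2. Retnlb, a resistin-like protein with antibacterial action (ENSMUSG00000022650, chromosome 16, 48637219 to 48639255, plus strand), had the fewest reads, with 220, 668 and 85 counts in GRdim libraries, against 615, 431 and 394 counts in GRwt libraries. In CPM these were 8.24, 18.9 and 3.12 in GRdim, against 18.3, 21.9 and 10.9 in GRwt libraries, so that GRdim replicate 2 lay among the GRwt values. The log2 fold change was -0.75 with a standard error of 0.57, -1.59 without GRdim replicate 2 and -0.33 without GRdim replicate 3. Sytl2, a synaptotagmin-like protein that ties granules carrying Rab27 to the plasma membrane (ENSMUSG00000030616, chromosome 7, 89951460 to 90059927, plus strand), stood at 145, 107 and 27.1 CPM in GRdim libraries, against 73.9, 117 and 131 CPM in GRwt libraries. GRdim replicate 1 was the highest of all 6 libraries, and the estimate of -0.21 with a standard error of 0.51 turned to 0.23 without GRdim replicate 3.

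**Figure D3:**
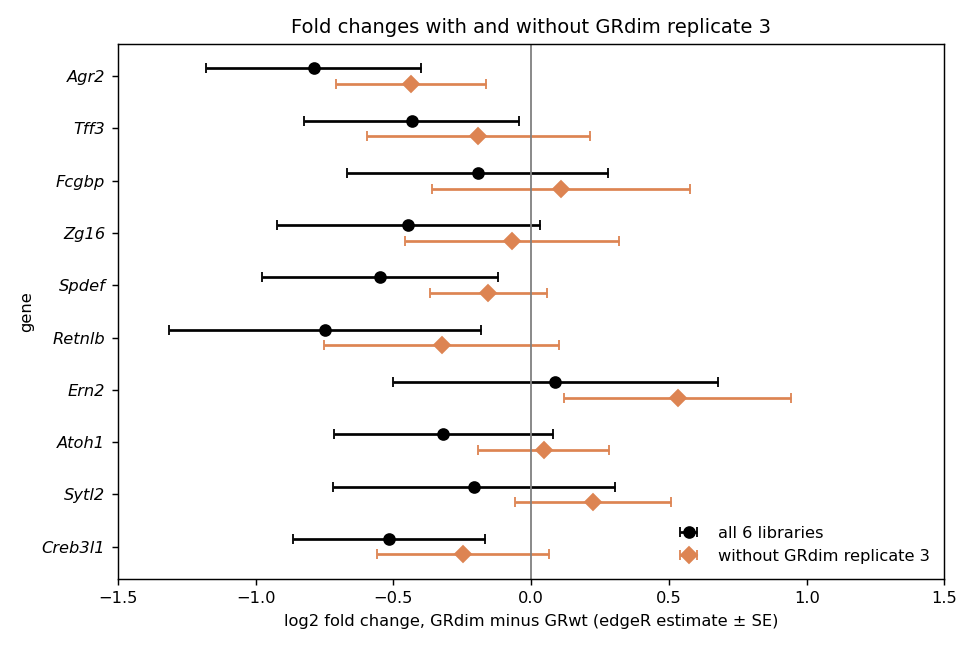
edgeR log2 fold change (GRdim minus GRwt) of each goblet cell gene with its standard error as a bar, from all 6 libraries (black circles) and without GRdim replicate 3 (orange diamonds). Without that library each estimate moves to the right, Spdef from -0.55 to -0.16 and Ern2 from 0.09 to 0.53.

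Counts by direction differed between the libraries with and without a T in their names. Between the pair with a T, GRdim replicate 1 was above GRwt replicate 3 for 8 genes and below it for 2, Agr2 and Retnlb. Their log2 ratios of -0.24 and -0.40 have no replicate, and the same count over all tested genes was not made. Among the 4 libraries with no T, 9 of 10 genes had a lower estimate in GRdim. The median of the 10 was -0.86, beside -0.0043 over all genes. GRdim replicate 3 is 1 of the 2 GRdim samples here, so the T and the low values of that library cannot be told apart. Creb3l1 had the smallest unadjusted p of the 10 (log2 fold change -1.07, standard error 0.24, edgeR adjusted p = 0.711).

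Set against the epithelial reference list, the genes kept the same lowest library. Per 1000 counts of that list, Agr2 gave 71.6, 65.1 and 20.6 counts in GRdim replicates 1, 2 and 3, against 88.1, 67.8 and 84.3 counts in GRwt replicates 1, 2 and 3. Spdef gave 6.64, 4.96 and 1.37 counts in GRdim libraries, against 5.91, 4.91 and 5.73 counts in GRwt libraries. On this scale the groups overlapped for Agr2, since GRdim replicate 1 lay above GRwt replicate 2. For Spdef, GRdim replicates 1 and 2 lay within or above the GRwt range. GRdim replicate 3 was the lowest library for all 10 genes, and how far squamous epithelium adds to its reference counts was not tested. Scaled in this way the edgeR fit called 0 of the 10 genes, with 8 lower and 2 higher and a median log2 fold change of -0.23, while the median of all genes shifted by 0.13.

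Levels of different genes were compared per kilobase of exon in GENCODE M21, a set of gene models of build GRCm38. On that scale of CPM per kilobase, Zg16 was the most abundant of the 10, at 3587 ± 1970 in GRdim and 4887 ± 1857 in GRwt tumors (SD, n = 3 each). It rests on a model of 682 bases, whereas the gene spans 37173 bases in the count table, so that the counted exons may be longer than those used. Tff3 and Agr2 followed, at 1321 ± 617 and 993 ± 484 in GRdim and at 1785 ± 642 and 1716 ± 219 in GRwt tumors, levels that did not differ from each other beyond their spread. Fcgbp, long as its transcript is, stood at 269 ± 155 in GRdim and 308 ± 152 in GRwt tumors, and Creb3l1 at 99.4 ± 51.4 in GRdim and 142 ± 20.4 in GRwt tumors. Spdef stood at 33.1 ± 18.6 in GRdim and 48.4 ± 6.85 in GRwt tumors. Atoh1, Sytl2, Retnlb and Ern2 came last, with GRdim means from 14.5 to 26.0 and GRwt means from 24.5 to 29.4, close enough that their order was within their spread. The first 6 places were the same in both genotypes.

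The 10 genes shared their lowest library, and some pairs of them were closer in pattern than others. The difference between 2 patterns is given as the root mean square over the 6 libraries of the log2 CPM difference, after each gene was centred on its own mean, so that 0 means the same pattern. Of the 45 pairs, Agr2 with Spdef was the closest at 0.16, followed by Spdef with Atoh1 at 0.18 and Agr2 with Atoh1 at 0.27. Ern2 with Sytl2 came next at 0.29, and both were high in the libraries with a T in their names. The farthest pairs were Ern2 with Retnlb at 0.98 and Ern2 with Tff3 at 0.97. All pairs share the low value of GRdim replicate 3 and the same library totals, so small differences are in part set by that 1 library. The distances were not set against those between pairs of other genes.

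**Figure D4:**
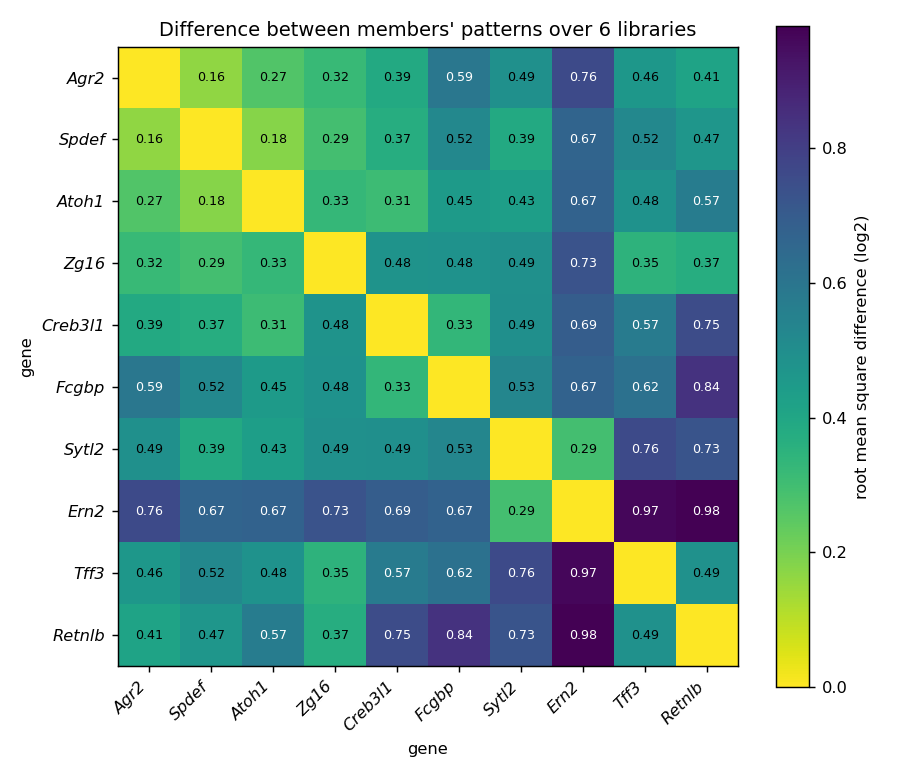
Root mean square difference in centred log2 CPM over the 6 libraries for each pair of goblet cell genes; yellow is alike and dark blue is unlike. Agr2, Spdef and Atoh1 form the pale corner with 0.16 to 0.27, and Ern2 is unlike Tff3 and Retnlb at 0.97 and 0.98.

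Among 12131 other tested genes with a mean of at least 5 CPM, the 6 whose pattern lay nearest to the mean of the 10 were Gm33694, Insl5, Ano7, Rasd1, Atp2c2 and Gm31235, at 0.055 to 0.114. Insl5, a hormone of enteroendocrine cells, stood at 34.3, 36.3 and 10.4 CPM in GRdim libraries, against 31.9, 48.6 and 34.1 CPM in GRwt libraries. Rasd1, a small G protein first described as induced by dexamethasone, stood at 25.9, 21.1 and 7.68 CPM in GRdim libraries, against 21.01, 25.7 and 22.7 CPM in GRwt libraries. Ano7 and Atp2c2, a membrane protein of the anoctamin family and a calcium and manganese pump of the secretory pathway, had log2 fold changes of -0.39 and -0.48.

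Other goblet cell genes showed the same library as lowest: it was GRdim replicate 3 for 17 of 21 tested genes of a further list. Of these 21 genes, 19 were lower and 2 higher in GRdim by estimate, with a median of -0.35, and 0 had an unadjusted p under 0.05 with edgeR. Without GRdim replicate 3, 12 were lower and 9 higher, with a median of -0.12; the median was -0.61 without GRdim replicate 1, -0.19 without GRwt replicate 2 and -0.11 when scaled to the epithelial reference genes. Muc2, the gel-forming mucin, stood at 24954, 5939 and 1462 CPM in GRdim libraries, against 11963, 14469 and 14711 CPM in GRwt libraries. Its GRdim values lay on both sides of the GRwt values. Clca1, a mucus metalloprotease, stood at 3827, 3040 and 560.2 CPM in GRdim libraries, against 1717, 5133 and 2769 CPM in GRwt libraries. Spink4, Galnt12, Tspan13 and Tpsg1 had the smallest p of the list, and Spink4, a protease inhibitor made by goblet cells, stood at 620.3 ± 378 CPM in GRdim and 1211 ± 487 CPM in GRwt tumors (SD, n = 3 each; log2 fold change -0.96, standard error 0.53).

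Not every goblet cell regulator was far lower in GRdim replicate 3 than elsewhere, although Foxa1 and Foxa2 had their lowest values there by a narrow margin. The regulators given here were named after their values were seen. Foxa1 and Foxa3, forkhead factors of the gut epithelium, stood at 113 and 68.2 CPM in GRdim replicate 3. They stood at 119 and 64.7 CPM in GRdim replicate 1 and at 123 and 74.4 CPM in GRdim replicate 2. The GRwt libraries held 115 to 153 CPM of Foxa1 and 61.0 to 89.9 CPM of Foxa3. Foxa2 stood at 45.7 CPM in GRdim replicate 3 and at 49.5 to 59.8 CPM in the other libraries. Klf4, a factor of terminal differentiation, stood at 263 CPM in GRdim replicate 3, within the GRwt range of 222 to 450 CPM. Gfi1, a repressor downstream of Atoh1, stood at 14.5, 12.4 and 4.59 CPM in GRdim libraries, against 13.8, 11.9 and 9.59 CPM in GRwt libraries.

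The Notch pathway, which restrains Atoh1, held 26 tested genes, of which 16 were higher and 10 lower in GRdim by estimate, with a median log2 fold change of 0.09 and 0 at an unadjusted p under 0.05 with edgeR. Scaled to the epithelial reference genes, 22 were higher and 4 lower (median 0.22), and without GRwt replicate 2, 21 were higher and 5 lower (median 0.15). Hes1, the repressor through which Notch acts on Atoh1 (named after its values were seen), stood at 90.0, 109 and 112 CPM in GRdim libraries, against 122, 112 and 89.5 CPM in GRwt libraries. Notch3, a receptor also present in vascular smooth muscle, stood at 12.7 ± 4.91 CPM in GRdim and 8.45 ± 0.405 CPM in GRwt tumors, and Notch4, a receptor of blood vessels, at 33.3 ± 9.46 CPM in GRdim and 45.04 ± 5.39 CPM in GRwt tumors (SD, n = 3 each).

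Genes of the unfolded protein response, the chaperones and enzymes that serve a loaded endoplasmic reticulum, were mostly lower in GRdim by estimate. Of 21 tested genes, 20 were lower and 1 higher, with a median of -0.41. At an unadjusted p under 0.05 with edgeR there were 10 of them, all lower, and 0 passed after adjustment. Of all tested genes, 1.09% were lower at that level and 2.88% passed it in either direction. The list was chosen with earlier results of these data known, so its counts are a description and no test of enrichment. Hspa5, the main chaperone of that compartment, stood at 694, 759.6 and 609.8 CPM in GRdim libraries, against 1177, 1110.5 and 959.9 CPM in GRwt libraries. Each GRdim library was below each GRwt library, as for 8 genes of the list in all, an order that 3.57% of all tested genes had. The log2 fold change of Hspa5 was -0.65 with a standard error of 0.21, and those of the disulfide isomerases Pdia6 and Pdia4 were -0.62 and -0.57 with standard errors of 0.19 each. Without GRdim replicate 3 the list had a median of -0.34, with 16 lower, 5 higher and 1 at an unadjusted p under 0.05. That count of 10 was 0 when the libraries were scaled to the epithelial reference genes (median -0.24, 15 lower and 6 higher). It was 2 with the replicate number as a block, 3 without GRwt replicate 1 and 2 without GRwt replicate 2. It was 5 with GRdim replicates 1 and 3 summed, 8 without GRdim replicate 1 and 7 without GRdim replicate 2. It stayed at 10 with DESeq2, with relative log expression in place of TMM, with no filter and without GRwt replicate 3. With limma-voom it was 11, with the T as covariate 12 and in the 4 libraries with no T 13. The list's mean log2 CPM lay at -0.34, -0.21 and -0.52 from the GRwt mean in GRdim replicates 1, 2 and 3, against 0.11, 0.08 and -0.19 in GRwt replicates 1, 2 and 3. Ern1, the ubiquitous relative of Ern2, stood at 77.3, 86.3 and 55.5 CPM in GRdim libraries, against 50.6, 58.0 and 86.3 CPM in GRwt libraries.

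Partners of Sytl2 in granule release split by a narrow margin that depended on scaling. Of 17 tested genes, 8 were higher and 9 lower in GRdim by estimate, with a median of -0.01 and 0 at an unadjusted p under 0.05 with edgeR. Scaled to the epithelial reference genes, 13 were higher and 4 lower (median 0.15), and without GRwt replicate 2, 12 were higher and 5 lower. Rab27a and Rab27b, the small G proteins that Sytl2 binds (named after their values were seen), stood at 40.9 ± 18.6 and 62.6 ± 28.3 CPM in GRdim and at 51.4 ± 18.9 and 73.2 ± 20.5 CPM in GRwt tumors (SD, n = 3 each). Rab37 and Myrip, a further Rab protein and a Rab27 effector, had the smallest p of the list, with log2 fold changes of 0.70 and 0.71 and standard errors of 0.31 and 0.32.

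Of the type 2 cytokine pathway, which induces Retnlb and goblet cell growth in the gut, 9 genes were tested, 6 lower and 3 higher, with a median of -0.29, which was -0.16 without GRdim replicate 3 and -0.13 without GRwt replicate 2. Il33 and its receptor gene Il1rl1 were the 2 with an unadjusted p under 0.05 with edgeR, both lower, as were 1.09% of all tested genes at that level. Il33 stood at 20.4, 13.9 and 14.8 CPM in GRdim libraries, against 40.5, 36.8 and 43.1 CPM in GRwt libraries, and Il1rl1 at 79.9, 75.1 and 41.9 CPM in GRdim libraries, against 152, 165 and 249 CPM in GRwt libraries. In both, each GRdim library lay below each GRwt library, an order that 3.57% of all tested genes had. For 1 other tested gene of the list each GRdim library lay above each GRwt library. Neither Il33 nor Il1rl1 passed after adjustment over all genes, and the list was chosen with earlier results of these data known.

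Of the paralogs of the 10 genes, 8 of 15 tested were higher and 7 lower, with a median of 0.03, and 12 were higher and 3 lower when scaled to the epithelial reference genes. The only one with an unadjusted p under 0.05 was Retn, the adipocyte hormone resistin and a relative of Retnlb, at 5.24, 0.113 and 2.72 CPM in GRdim libraries, against 0.446, 0.102 and 0.0829 CPM in GRwt libraries. All 9 tested adipocyte markers had higher estimates in GRdim, with summed levels of 351, 189.6 and 363 CPM in GRdim libraries, against 229, 197 and 119 CPM in GRwt libraries. Their defining member Adipoq stood at 12.02, 0.0567 and 4.77 CPM in GRdim libraries, against 3.04, 0 and 0.0276 CPM in GRwt libraries, and the part of fat tissue in the Retn value was not tested. Creb3l4, a relative of Creb3l1, stood at 47.6, 46.3 and 19.3 CPM in GRdim libraries, against 59.7, 52.4 and 37.2 CPM in GRwt libraries, with GRdim replicate 3 again the lowest.

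GRdim replicate 3 was the lowest library for 19.0% of all tested genes, and the lists of other epithelial lineages are given beside that share with no test between them. Of the enteroendocrine and tuft cell markers 8 of 15 tested genes were lowest in it, of the absorptive colonocyte markers 5 of 14, of the deep crypt secretory and Paneth markers 3 of 12 and of the epithelial reference genes 1 of 12. The mean log2 CPM of the 10 goblet cell genes lay at 0.01, -0.08 and -1.66 from the GRwt mean in GRdim replicates 1, 2 and 3, against -0.12, 0.31 and -0.18 in GRwt replicates 1, 2 and 3. For the enteroendocrine and tuft list the values were 0.24, 0.27 and -0.50 in GRdim, against -0.24, 0.20 and 0.03 in GRwt libraries. The medians of these 4 lists of other lineages were -0.14, -0.07, -0.58 and -0.17 in the order named, with 0 genes at an unadjusted p under 0.05 with edgeR. None of these signs held in every fit: the enteroendocrine and tuft median was 0.09 without GRdim replicate 3, and the colonocyte median 0.26 without GRwt replicate 2. The deep crypt and Paneth median was 0.23 without GRwt replicate 1, and that of the epithelial reference genes 0.047 without GRwt replicate 2. Scaled to the epithelial reference genes, the enteroendocrine and tuft median was 0.042 and the colonocyte median 0.13.

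**Figure D5:**
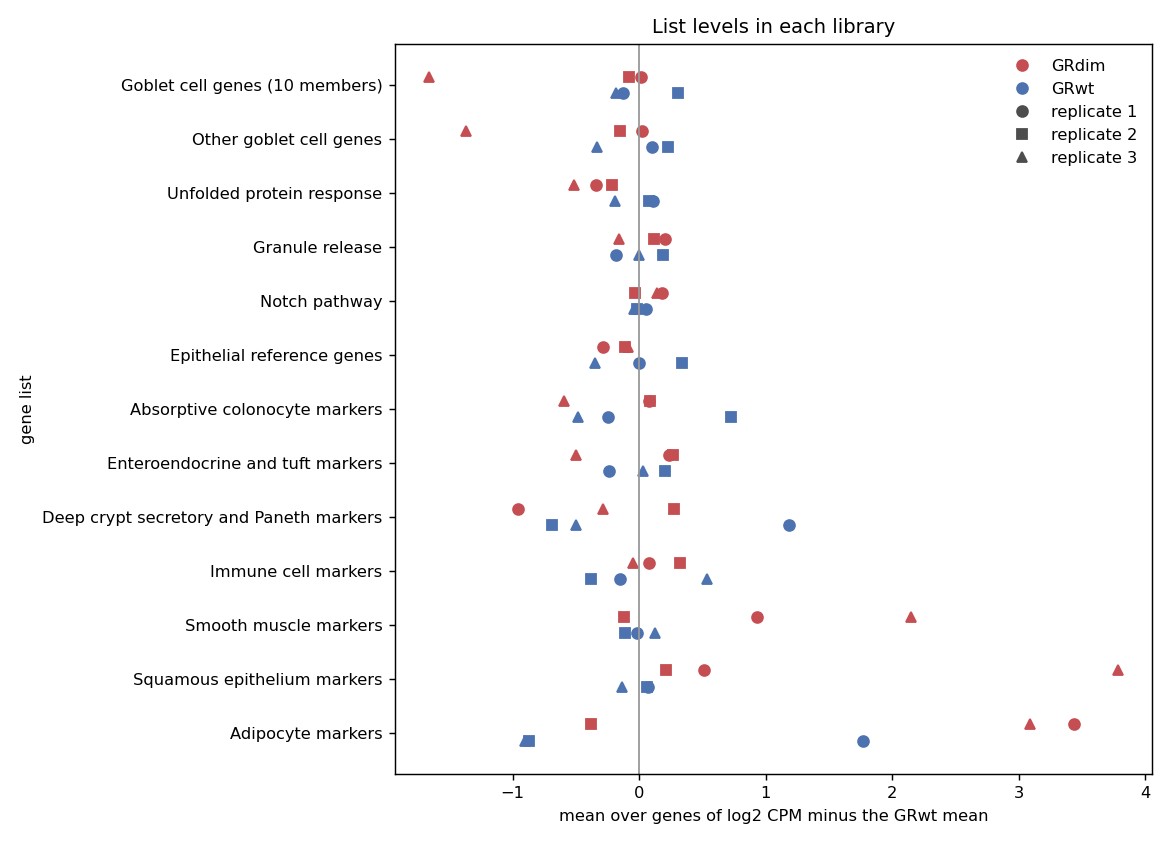
Mean log2 CPM of each gene list relative to the mean of the 3 GRwt libraries (x axis), for the GRdim (red, upper row) and GRwt (blue, lower row) libraries of each list, with marker shape for the replicate. GRdim replicate 3 lies at -1.66 for the goblet cell genes and at -1.37 for other goblet cell genes, at -0.09 for the epithelial reference genes and at 2.15 and 3.79 for smooth muscle and squamous markers.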

How the data were processed

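RNA was sequenced from 6 colonic tumor samples, 3 GRdim and 3 GRwt. Per the labels' protocols, RNA was extracted with an RNeasy kit, polyadenylated RNA was isolated on Dynabeads, and the Illumina Stranded mRNA kit gave stranded libraries. The submitters' processing notes name bcl2fastq 2.20.0.422, Trim Galore, STAR 2.7.8a, featureCounts of Subread 1.5.0, DESeq2 1.40.2 and build GRCm39. The deposited values are raw counts per gene, not normalized; strand setting and annotation release are not given in the sources used here. Columns were matched to samples by library name.

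Counts were tested with edgeR 4.0.16 in R 4.3.3 (quasi-likelihood F test, TMM, default filter by group, robust dispersion), with Benjamini-Hochberg adjusted p under 0.05 over all 18756 genes tested as the threshold; the 813 genes without a count were left out. The standard error is the log2 fold change divided by the square root of F. Log2 CPM used a prior count of 2. The fit was tested on simulated data. The members and 14 further gene lists were chosen with earlier results of these data known. Named were the 10 members, Nr3c1, up to 4 genes of smallest p from each list described, and the 6 genes nearest in pattern. Muc2, Clca1, Foxa1, Foxa2, Foxa3, Klf4, Gfi1, Hes1, Ern1, Rab27a, Rab27b, Krt1, Krt5, Adipoq, Ddx3y and Xist were named after their values were seen. Alternatives were DESeq2 1.42.0, limma-voom (limma 3.58.1), other scalings, no filter, covariates, and libraries left out or summed.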

Additional observations from a re-analysis of the deposited data

How the results depend on the processing

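Over the 15 alternatives run, 0 of the 10 goblet cell genes passed in any, with adjusted p from 0.596 upward. DESeq2 called 33 genes in the table, 10 higher and 23 lower in GRdim, against 0 with edgeR. The other 14 alternatives, with limma-voom, other scalings, no filter or libraries left out, called 0. The median of the 10 genes was negative throughout. It ran from -0.69 to -0.11 when each library was left out in turn, the value nearest 0 being that without GRdim replicate 3. It was -0.64 with limma-voom, -0.86 in the 4 libraries named without a T, and -0.29 with GRdim replicates 1 and 3, whose library names share a number, summed. Estimates of 4 genes changed sign. Ern2 was -0.034 with limma-voom and -0.042 under the replicate block, and ran from -0.45 to 0.53 with a library left out. Fcgbp was 0.074 when scaled to the epithelial reference genes, and ran from -0.75 to 0.28 with a library left out. Atoh1 and Sytl2 ran to 0.046 and 0.23 without GRdim replicate 3, from -0.70 and -0.68 without other libraries. The other 6 genes were lower in GRdim in all 15. The labels do not say whether the replicate numbers pair the samples. Deviations of same-numbered libraries had correlations of -0.39, 0.03 and -0.43, and of the GRdim libraries only replicate 2 correlated best with its own number. With 3 libraries per group, these values cannot show whether the samples were paired. The replicate block called 0 genes, with a median of -0.53 for the 10 genes. Retnlb rests on 85 to 668 counts per library, the other 9 genes on at least 561. The cause of these differences was not tested.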
